A study of Mus musculus with 6 samples.

Results

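The solute carrier (Slc) genes encode membrane proteins that move metabolites, ions, vitamins and metals across the plasma membrane and the membranes of organelles. The 107 genes described here were chosen from 262 mouse genes whose probe sets carry a single symbol starting with Slc and a digit. Slc2a1, Slc7a2, Slc7a11, Slc11a1, Slc11a2 and Slc40a1 were left out by the rule, and of the 256 others, 149 stayed under a signal of 200 on every array. For each gene the probe set of highest mean signal was used, and 57 of the 107 had only 1 probe set. The genes nearest the limit were Slc25a15 (highest signal 208) and Slc25a26 (214.5) inside it, and Slc41a1 (198.6) and Slc35d1 (190.8) outside it. Because members needed only 1 bright array, a gene could enter through the condition in which it was high: 58 reached 200 on all 6 arrays, 13 on 1 or 2 arrays, 2 only at 5 h of LPS, 2 only at 1 h and 8 only at 0 h. A further 23 reached it at 0 h and at 1 h but not at 5 h, so the rule also admitted genes through levels before 5 h. The 8 that reached it only at 0 h were Slc2a3, Slc4a1ap, Slc20a2, Slc22a5, Slc25a15, Slc25a38, Slc26a6 and Slc37a4, and the choice itself favours a fall from 0 h in these. The choice used signals of the same arrays as every comparison below, so counts and values over the members are descriptions of these genes.

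RNA came from bone marrow-derived macrophages of C57BL/6J mice, either wild type or lacking IκBβ, an inhibitor of the transcription factor NF-κB that is encoded by Nfkbib. The macrophages were grown from non-adherent marrow cells in medium conditioned by L929 fibroblasts, a source of the growth factor M-CSF. Both genotypes were left unstimulated (0 h) or given 1 µg/ml lipopolysaccharide (LPS), the bacterial cell wall component sensed through TLR4, for 1 h or 5 h. Each of these 6 conditions had 1 Affymetrix Mouse Genome 430A 2.0 array, and whether the arrays of a genotype came from 1 animal and how the knockout allele was made are not stated in the labels.

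Changes after LPS were estimated over both genotypes, as log2 differences with their standard errors (SE), and a gene was called higher or lower at a Benjamini-Hochberg adjusted p under 0.05 over the 7507 genes tested. The 2 genotypes stood in for replicates, so the p-values measure the spread between these arrays and not that between animals. All 107 members passed the filter on dim probe sets, and 2 of them (Slc2a3 and Slc16a7) had a signal under the floor of 18.3, in wild type at 5 h. Signals of different genes come from different probes and are not compared with each other.

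At 0, 1 and 5 h Nfkbib gave 477, 3330 and 5007 (wild type) and 30.5, 136 and 56.1 (knockout). Xist, which marks female cells, read 52.1 to 80.4 in wild type and 2149 to 5634 in knockout, so genotype and sex cannot be told apart. The 11 macrophage markers were all above the floor and summed to between 117100 and 127800 on the 6 arrays. Summed markers of erythroid cells (145 to 227), neutrophils (178 to 320), T and NK cells (49.9 to 118), fibroblasts (103 to 218) and mast cells (58.8 to 126) were low throughout. The 5 measured B cell markers summed to 3717 and 3902 at 0 h, 2586 and 2839 at 1 h and 452 and 438 at 5 h, mostly from Ighm, and the part of this fall in the results below was not tested. The median of an array's signals fell from 113.5 and 117 at 0 h to 70.8 and 65.2 at 5 h while the trimmed mean was 499.9 on all 6, so changes at 5 h are best read against the median change of all genes, −0.57 on the log2 scale. Fewer cells of a type and less RNA per cell cannot be told apart in such bulk samples.

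Solute carriers are named by families that share sequence, and members of a family can differ in substrate, direction and membrane. Macrophages given LPS are known to raise glycolysis and to export lactate through proton-linked monocarboxylate carriers, to sequester metals from microbes, and to make itaconate, nitric oxide and cytokines from imported sugars and amino acids. The protein encoded by Slc25a22 carries glutamate into mitochondria, that of Slc16a1 (MCT1) carries lactate and pyruvate, that of Slc31a2 (CTR2) is a copper transporter relative of endosomes, and that of Slc46a3 is a lysosomal carrier. Promoter windows were read for the 4 members with the largest called rises at 5 h and the 2 with the largest called falls among those with a window listed, which adds Slc12a4 and Slc37a2 to these 4 genes. Of the 8 windows of these 6 genes, the 4 that held a match to a motif searched are printed, so the printed ones were picked for their matches; the windows of Slc12a4 and Slc37a2 and the other 2 of Slc25a22 held none.

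The windows run from 250 bases before to 50 after an annotated start, taken from RefSeq (GRCm38.p6), 5′ to 3′ on the gene's strand. They are chr7:141435326-141435625 on the minus strand for Slc25a22 (the second of 3 windows listed for this gene), chr3:104638414-104638713 on the plus strand for Slc16a1, chr4:62286179-62286478 on the plus strand for Slc31a2 and chr5:147894766-147895065 on the minus strand for Slc46a3. Capitals mark matches to the motifs searched on both strands.
Slc25a22: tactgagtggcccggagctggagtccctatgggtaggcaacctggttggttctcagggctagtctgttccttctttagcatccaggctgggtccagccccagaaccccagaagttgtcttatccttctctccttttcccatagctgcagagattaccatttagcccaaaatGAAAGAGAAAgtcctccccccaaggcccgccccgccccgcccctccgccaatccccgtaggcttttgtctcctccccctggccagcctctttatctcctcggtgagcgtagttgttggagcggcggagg
Slc16a1: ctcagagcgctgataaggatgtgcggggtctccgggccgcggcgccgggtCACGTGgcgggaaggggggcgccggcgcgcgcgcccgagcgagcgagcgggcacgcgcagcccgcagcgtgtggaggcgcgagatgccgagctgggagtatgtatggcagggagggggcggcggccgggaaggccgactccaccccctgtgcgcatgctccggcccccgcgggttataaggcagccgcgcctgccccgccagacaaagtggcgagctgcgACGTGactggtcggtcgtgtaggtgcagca
Slc31a2: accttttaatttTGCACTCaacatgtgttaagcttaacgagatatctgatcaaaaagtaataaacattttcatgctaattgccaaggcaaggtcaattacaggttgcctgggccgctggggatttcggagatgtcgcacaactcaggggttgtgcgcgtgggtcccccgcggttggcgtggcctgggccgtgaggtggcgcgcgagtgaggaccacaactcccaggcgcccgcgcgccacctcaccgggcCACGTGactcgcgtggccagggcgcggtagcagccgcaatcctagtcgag
Slc46a3: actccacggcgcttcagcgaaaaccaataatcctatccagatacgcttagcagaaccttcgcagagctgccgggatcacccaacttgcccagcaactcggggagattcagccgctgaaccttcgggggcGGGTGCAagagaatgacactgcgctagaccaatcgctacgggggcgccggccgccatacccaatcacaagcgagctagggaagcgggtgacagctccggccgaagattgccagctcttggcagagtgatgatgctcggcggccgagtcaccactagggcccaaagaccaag

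The Slc25a22 window holds an interferon response-like match (GAAANNGAAA), the windows of Slc16a1 and Slc31a2 hold matches to the core ACGTG, which in the palindrome CACGTG is read on both strands, and the windows of Slc31a2 and Slc46a3 hold a metal response-like match (TGCACNC). Windows were listed for 85 of the 107 members. Of these 85 genes, 41.2% held ACGTG, against 21.8% of the 27025 genes with a window, and 24.7% held TGCACNC, against 14.2%. An NF-κB-like motif (GGGNNNTTCC) was in 5.88% of the members and 6.31% of all genes, GAAANNGAAA in 2.35% and 3.99%, and TATAAA in 7.06% and 15.7%. ACGTG was in 41.7% of the 12 members with a window that rose at least 2-fold at 5 h and in 34.3% of the 35 that fell as much. For TGCACNC these shares were 16.7% and 25.7%. Members were chosen for their signal on these arrays and the 27025 genes were not, so their shares come from unlike sets. These matches describe letters in a fixed window and not sites of binding.

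At 1 h of LPS, 9 members rose and 4 fell, and 94 did not pass the test. The 9 are 8.41% of the members, beside 5.45% of all genes tested called higher, and the 4 are 3.74%, beside 5.94% called lower. The median change was −0.21 over the members and −0.18 over all genes. The phosphate importer Slc20a1 (PiT1) rose by a log2 of 1.92 ± 0.27 (SE, adjusted p = 0.0274), the mitochondrial pyrimidine nucleotide carrier Slc25a33 by 1.88 ± 0.20 (SE, adjusted p = 0.0142) and the zinc and iron importer Slc39a14 (ZIP14) by 1.59 ± 0.18 (SE, adjusted p = 0.0176). The other 6 that rose were Slc31a2 (1.48), the potassium-chloride cotransporter Slc12a4 (KCC1, 1.12), the lactate exporter Slc16a3 (MCT4, 1.10), the mitochondrial iron importer Slc25a37 (mitoferrin 1, 0.90), the neutral amino acid importer Slc38a2 (SNAT2, 0.87) and the endolysosomal histidine and peptide carrier Slc15a3 (0.75). The 4 that fell were the endoplasmic reticulum glucose-6-phosphate carrier Slc37a4 (−1.03), the lysosomal nucleoside carrier Slc29a3 (−0.95), the second mitochondrial pyrimidine nucleotide carrier Slc25a36 (−0.77) and Slc66a2 (−0.74). None of these 13 calls held when each array was left out in turn: without the knockout array at 1 h no member was called, without the wild-type array at 1 h or the knockout array at 0 h 1 was higher and 0 lower, without the wild-type array at 0 h 2 and 0, and without either 5 h array 10 and 2.

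Some of these genes were high at 1 h and back at or under their starting level at 5 h. Slc20a1 signals at 0, 1 and 5 h were 631, 2003 and 202 (wild type) and 734, 3306 and 163 (knockout). Both 1 h arrays lay above and both 5 h arrays below the pair at 0 h, and from 1 h to 5 h the gene fell by 14.2-fold (log2 −3.82 ± 0.27 (SE, adjusted p = 0.00108)). A second Slc20a1 probe set read 3.29 to 63.2, and the mean of both gave a change at 1 h of 0.32 (adjusted p = 0.159), without a call.

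Slc25a33 went through 203, 599 and 140.5 (wild type) and 176, 805 and 126 (knockout), so the 1 h arrays stood apart from the other 4. Its change from 1 h to 5 h was −2.38 ± 0.20 (SE, adjusted p = 0.00145), while that from 0 h to 5 h (−0.50, adjusted p = 0.0794) did not pass. Slc38a2 read 719, 1340 and 203 (wild type) and 893, 1595 and 243 (knockout), a rise at 1 h in both genotypes followed by 5 h signals under those at 0 h (−1.85 ± 0.10 (SE, adjusted p = 0.000447)). Its neighbour on chromosome 15, Slc38a1 (SNAT1), with no gene between them in the RefSeq gene table, read 473, 733 and 248 (wild type) and 632, 767 and 225 (knockout). The rise of Slc38a1 at 1 h (0.46) did not pass the test, and it fell at 5 h by 1.21 on the log2 scale (adjusted p = 0.00406).

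**Figure D1:**
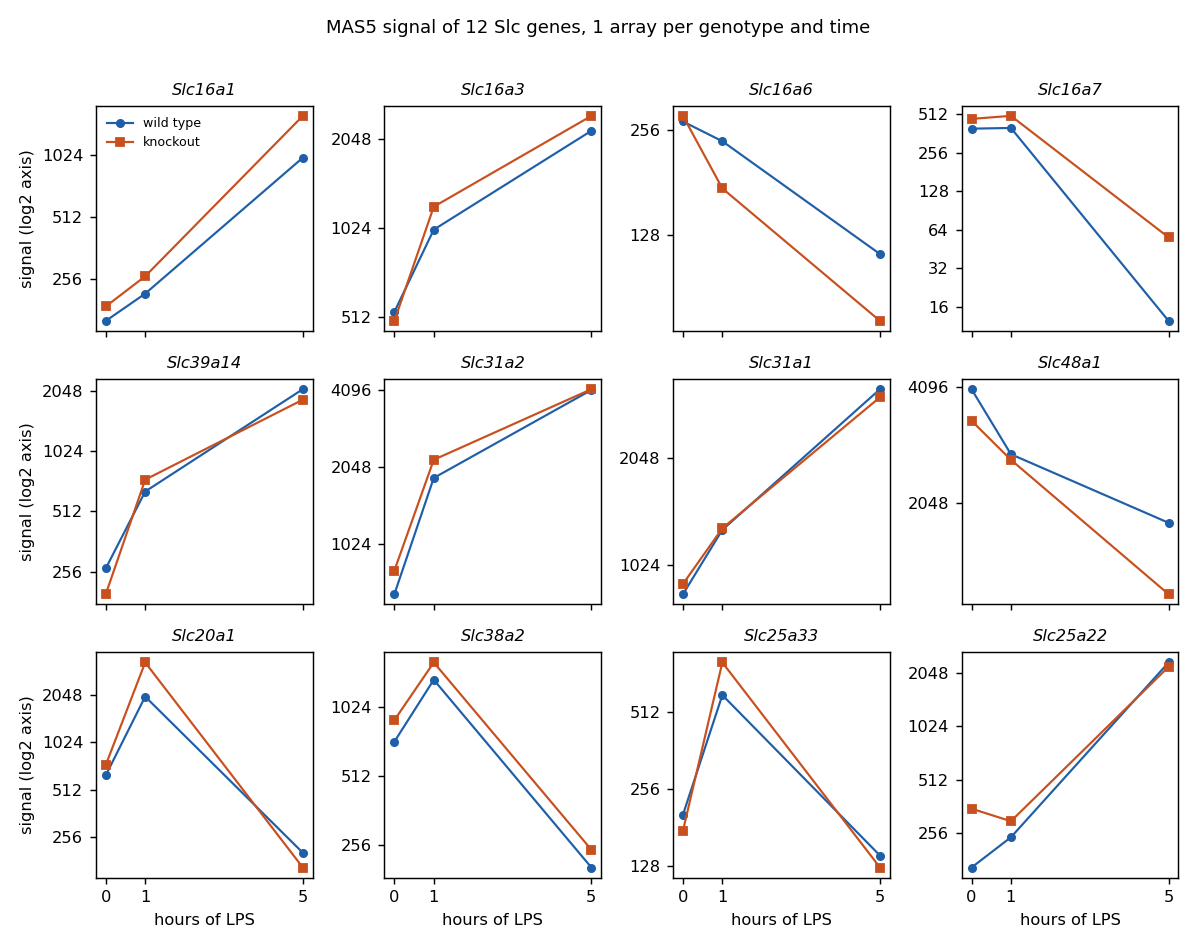
Deposited MAS5 signal (log2-scaled axis, no floor applied) of 12 Slc genes against hours of LPS, with 1 array per point and a scale of its own in each panel, wild type as blue circles and knockout as orange squares. Slc20a1, Slc38a2 and Slc25a33 peak at 1 h in both genotypes, Slc39a14, Slc31a1, Slc31a2, Slc16a1 and Slc16a3 rise at both steps, Slc25a22 rises at 5 h, and Slc16a7 drops to 12.4 and 55.8 at 5 h.

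At 5 h of LPS, 21 members rose, 61 fell and 25 did not pass the test, with changes of at least 2-fold in 14 of those that rose and 49 of those that fell. The share called higher was 19.6%, against 19.5% of all genes tested, and the share called lower 57%, against 54%, so both were near the background. The counts at 5 h given below for substrate groups, families and gene lists are to be read beside these 19.5% and 54% of all genes. At least 2-fold and called, 13.1% were higher and 45.8% lower, beside 11.9% and 34.7% of all genes. Members had to reach the signal limit, and all genes only had to exceed the median of an array. Shares of members and of all genes therefore come from unlike sets, in this and every other comparison. Some members entered only through arrays before 5 h, which favours falls. The part of this choice in the larger share of 2-fold falls was not tested. The median change was −0.73, or −0.16 relative to all genes. With each array centred on its median, which moves the median of all genes to 0.20, 39 members were called higher and 42 lower, and with quantile normalization 30 and 52. Under all the alternatives run, including the loss of any 1 array, 55 of the 82 calls held, 14 of them higher and 41 lower.

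**Figure D2:**
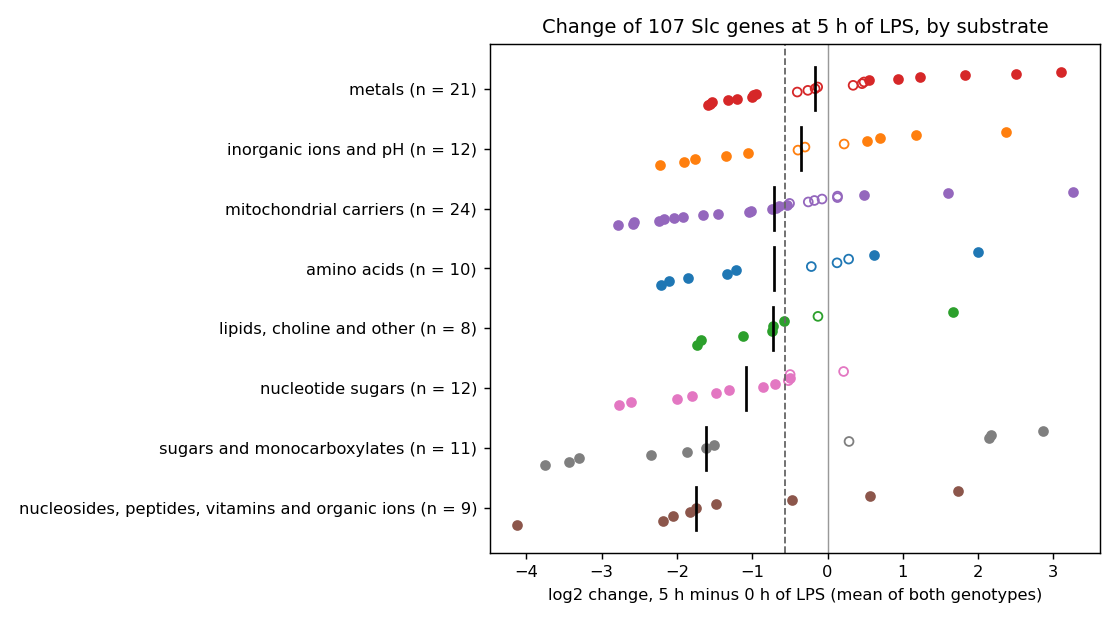
Log2 change from 0 h to 5 h of LPS (mean of both genotypes) of the 107 Slc genes in 8 substrate groups, with filled points for genes that passed the test and open points for those that did not. Black bars mark group medians, the dashed line the median of all 7507 genes (−0.57) and the grey line no change; the medians of the nucleoside and peptide group (−1.75) and of the sugar and monocarboxylate group (−1.61) lie farthest to the left.

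Among the 11 carriers of sugars and monocarboxylates, 3 rose and 7 fell while 1 missed the threshold; the median of −1.61 stayed negative with median centring (−0.85) and quantile normalization (−0.88). Carriers of lactate went in opposite directions. Slc16a1 (MCT1) read 159.5, 217 and 994 (wild type) and 188, 263 and 1588 (knockout) at 0, 1 and 5 h. Both 5 h arrays exceeded the other 4, a 7.26-fold rise (log2 2.86 ± 0.15 (SE, adjusted p = 0.000445)). Slc16a3 (MCT4), the carrier best known for lactate export from glycolytic cells, read 533, 1011 and 2184 (wild type) and 497, 1209 and 2453 (knockout), rising at each step to 2.17 ± 0.13 (SE, adjusted p = 0.000553). In contrast, Slc16a7 (MCT2), which has a high affinity for pyruvate, read 396, 401 and 12.4 (wild type) and 472, 498 and 55.8 (knockout). Because wild type at 5 h was under the floor, the log2 change there was −4.44 or lower, and the change in knockout was −3.08 (adjusted p = 0.00173 over both). Slc16a6 (MCT7) also fell, with a change of −1.61 ± 0.20 (SE, adjusted p = 0.00288).

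The plasma membrane glucose importer Slc2a3 (GLUT3) read 235, 174 and 17.6 (wild type) and 277, 179 and 30.7 (knockout). Its wild-type value at 5 h was again under the floor, and the log2 change was −3.68 or lower there and −3.17 in knockout (adjusted p = 0.000513), while the mean over all its probe sets gave −1.85. Slc37a2, a glucose-6-phosphate and phosphate antiporter of the endoplasmic reticulum that is abundant in macrophages, went from 1655 to 176 in wild type and from 1492 to 144 in knockout (−3.30 ± 0.11 (SE, adjusted p = 0.00032)). The intracellular hexose carriers Slc2a8 (GLUT8, −2.34 ± 0.16) and Slc50a1 (SWEET1, −1.87 ± 0.13) and the glucose-6-phosphate carrier Slc37a4 (−1.51 ± 0.13) fell as well. The related Slc37a3 (0.29, adjusted p = 0.0686) was the member of this group that did not pass at 5 h. Slc2a3 and Slc37a4 were members only through 0 h.

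Slc13a3 (NaDC3), a sodium-coupled importer of dicarboxylates such as succinate, read 50.5, 43.5 and 151 (wild type) and 58.8, 55.6 and 384 (knockout). It reached 200 on the knockout array at 5 h and on no other. The fitted change, 2.14 ± 0.32 (SE, adjusted p = 0.00473), includes this array, so the choice itself favours a rise. The wild-type array at 5 h, which did not admit the gene, also exceeded all 4 earlier ones. With the mean of its probe sets the change was 1.10. The dicarboxylate carriers of mitochondria are described with the Slc25 family below.

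The 9 carriers of nucleosides, peptides, vitamins and organic ions had the lowest group median, −1.75, and it remained negative with median centring (−0.98) and quantile normalization (−1.14). Of these, 2 rose and 7 fell. Slc46a3, whose promoter window is printed above, read 1109, 736 and 77.7 (wild type) and 1107, 787 and 52.4 (knockout), a 17.4-fold fall (−4.12 ± 0.20 (SE, adjusted p = 0.000405)) and the largest fitted fall of the 107 genes. Both 5 h arrays lay far under the other 4. The nucleoside carriers of the lysosome, Slc29a3 (ENT3), and of the cell surface, Slc29a1 (ENT1), fell, with changes of −1.83 ± 0.14 and −1.49 ± 0.19 (SE). Slc29a3 had already fallen at 1 h, with signals of 1229, 622 and 306 (wild type) and 1343, 708 and 429.7 (knockout).

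The thiamine importer Slc19a2 (−2.06 ± 0.11 (SE, adjusted p = 0.00044)), the reduced folate carrier Slc19a1 (−2.18 ± 0.45 (SE, adjusted p = 0.013)) and the carnitine importer Slc22a5 (OCTN2, −1.75 ± 0.18 (SE, adjusted p = 0.00179)) also fell. Of these, Slc22a5 was a member only through 0 h. Slc19a1 fell farther in knockout, from 315 to 38.6, than in wild type, from 239 to 95; this difference rests on single arrays and was not tested. Against these, Slc15a3, an endolysosomal carrier of histidine and small peptides, read 3431, 5777 and 11890 (wild type) and 3580, 6020 and 11490 (knockout). It rose at each step in both genotypes, to 1.74 ± 0.10 (SE, adjusted p = 0.000518). Its paralog Slc15a4, needed for signalling of nucleic acid-sensing Toll-like receptors, read 809.5, 643 and 594 (wild type) and 841, 585 and 595 (knockout). The change of Slc15a4 was −0.47 ± 0.11 (SE, adjusted p = 0.0185), under the median fall of all genes; its sign turned with median centring (0.29), and its call was lost without either 0 h or either 5 h array (adjusted p 0.0532 to 0.151). The vitamin C importer Slc23a2 (SVCT2) passed as higher (0.56 ± 0.15 (SE, adjusted p = 0.0308)), a call lost without any 1 array other than the knockout array at 5 h. A second, dimmer Slc23a2 probe set gave larger changes, 0.91 at 1 h and 1.48 at 5 h.

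Carriers of metals numbered 21, of which 6 rose, 7 fell and 8 did not pass. Their median was −0.17, or 0.40 above that of all genes, and it turned positive with median centring (0.60) and quantile normalization (0.23), where 11 were higher and 4 lower, and 8 and 5, respectively. Slc39a14 (ZIP14), an importer of zinc and of iron not bound to transferrin, read 266, 643 and 2084 (wild type) and 198, 737 and 1847 (knockout). Both genotypes climbed at each step, 8.56-fold in all (3.10 ± 0.18 (SE, adjusted p = 0.000512)). Slc31a1 (CTR1), the copper importer of the cell surface, read 850.3, 1287 and 3184 (wild type) and 908, 1300 and 3023 (knockout), a rise of 1.82 ± 0.11 (SE, adjusted p = 0.000512). A second Slc31a1 probe set gave a smaller rise, 0.94. Slc31a2 (CTR2) lies on chromosome 4 beside Slc31a1, with Fkbp15 as the only gene between them, and read 649, 1850 and 4088 (wild type) and 802, 2179 and 4118 (knockout) (2.51 ± 0.12 (SE, adjusted p = 0.000412)). Both copper genes were thus highest at 5 h in each genotype, while Fkbp15 changed by −2.27.

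Zinc exporters that load the secretory pathway were split. Slc30a4 (ZnT4) rose by 1.23 ± 0.21 (SE, adjusted p = 0.00713), Slc30a6 (ZnT6) by 0.94 ± 0.19 (SE, adjusted p = 0.0127) and Slc30a7 (ZnT7) by 0.55 ± 0.10 (SE, adjusted p = 0.00887). Slc30a5 (ZnT5), which pairs with Slc30a6 in the Golgi, fell instead, from 1008 and 1066 at 0 h to 321 and 388 at 5 h (−1.56 ± 0.16 (SE, adjusted p = 0.0016)). The call of Slc30a6 was lost without the wild-type array at 0 h (adjusted p = 0.0701) and that of Slc30a7 without either 0 h array (0.0753 and 0.0776). Slc30a1 (ZnT1), which exports zinc from the cell, read 189, 165 and 317 (wild type) and 222, 181 and 259 (knockout), and its change at 5 h (0.48, adjusted p = 0.057) did not pass.

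Of the 9 zinc importers of the Slc39 family, Slc39a14 rose, 4 fell and 4 did not pass. Those that fell were Slc39a9 (−1.59 ± 0.10), Slc39a11 (−1.54 ± 0.11), Slc39a6 (−1.21 ± 0.13) and Slc39a4 (−1.01 ± 0.14), and Slc39a1, Slc39a3, Slc39a7 and Slc39a13 lay between −0.40 and 0.46 without passing. The calls of Slc39a6 and Slc39a4 were lost with median centring. With the mean over probe sets Slc39a9 and Slc39a6 changed less (−0.72 and −0.59). Slc48a1 (HRG1), which returns haem from the phagolysosome to the cytosol, read 4049, 2746 and 1824 (wild type) and 3353, 2656 and 1191 (knockout), a fall of 1.32 on the log2 scale (adjusted p = 0.00319), and a second probe set gave −2.53. The magnesium carrier Slc41a2 fell (−0.95 ± 0.17 (SE, adjusted p = 0.00813)), a call lost without the knockout array at 0 h (adjusted p = 0.0521), and its relative Slc41a3 did not pass (−0.98). The vesicular zinc carrier Slc30a3 (ZnT3) and the nuclear and mitochondrial Slc30a9 did not pass either.

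Of 13 zinc and copper response genes outside the Slc families that were tested, 6 were higher and 5 lower at 5 h (median 0.28), against 8 and 2 with median centring (median 1.04) and 8 and 5 with quantile normalization (median 1.00). The metallothioneins Mt1 (1.37) and Mt2 (3.36), which bind zinc and copper, the copper-dependent ferroxidase ceruloplasmin (Cp, 4.70) and the metal reductase Steap4 (4.12) rose, as did Cox17 and S100a8. The copper exporter Atp7a (−1.19), the ferrireductase Steap3 (−2.37), the copper chaperones Ccs and Atox1, and Sod1 fell.

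The amino acid carriers were 10, with 2 higher, 5 lower and 3 not passing, and a median of −0.71 that became 0.050 with median centring, where 5 were higher and 5 lower. Slc7a8 (LAT2), a light chain that exchanges neutral amino acids, read 392, 478 and 1253 (wild type) and 294, 502 and 1466 (knockout), above all earlier arrays at 5 h in both genotypes (2.00 ± 0.19 (SE, adjusted p = 0.00145)). Its partner Slc3a2 (CD98 heavy chain) read 2396, 2815 and 3926 (wild type) and 2552, 3392 and 3678 (knockout). The change of Slc3a2 was 0.62 ± 0.13 (SE, adjusted p = 0.0144); it missed the threshold with quantile normalization (0.41, adjusted p = 0.0544) and without either 0 h array or the wild-type array at 5 h (adjusted p 0.0522 to 0.083). Another light chain, Slc7a7 (y+LAT1), did not pass (0.28, adjusted p = 0.128), and 2 further partners were no members, as Slc7a5 (LAT1) peaked at 12.01 and Slc7a6 (y+LAT2) at 94.45 on any array.

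All 3 sodium-coupled carriers of the Slc38 family were lower at 5 h, beside 54% of all genes tested. Besides Slc38a1 and Slc38a2, Slc38a10 read 1530, 1138 and 324 (wild type) and 1471, 1278 and 322 (knockout), a fall of 2.21 on the log2 scale (adjusted p = 0.000422), with −1.26 for the mean of its probe sets. The lysosomal exporter of cationic amino acids Slc66a1 (PQLC2, −2.10 ± 0.32) and its relative Slc66a2 (−1.33 ± 0.13) fell too. The taurine importer Slc6a6 read 6478, 6719 and 5201 (wild type) and 6182, 5629 and 5712 (knockout) and did not pass (−0.22, adjusted p = 0.222). For the creatine importer Slc6a8 the probe set used gave 0.13 and a dimmer one −1.16, and for Slc6a6 dimmer probe sets gave 0.73 and 0.18, so these 2 are the members whose probe sets above 200 disagreed in sign.

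Genes of the amino acid response driven by the transcription factor ATF4, which include several Slc genes in other cells, were mixed: of 24 tested, 5 were called higher, 14 lower and 5 neither at 5 h (median −0.93). With median centring 9 were higher and 8 lower (median −0.17), and with quantile normalization 8 and 11 (median −0.33). Psat1, of serine synthesis, rose by 3.82, while Pck2 changed by −4.34 and the stress gene Sesn2 by −3.55. Atf4 itself rose at 1 h (0.77) and did not pass at 5 h (0.25).

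Inorganic ion carriers and pH regulators numbered 12 (counting the adaptors Slc9a3r1 and Slc4a1ap, which carry an Slc symbol but transport nothing themselves), with 4 higher, 5 lower and 3 not passing. Their median of −0.35 turned to 0.030 with quantile normalization and 0.42 with median centring, with 6 higher and 5 lower in the one and 6 and 4 in the other. The cation-chloride cotransporters of the Slc12 family were all 3 higher, beside 19.5% of all genes tested. Slc12a4 (KCC1) read 186, 413 and 1080 (wild type) and 185, 397 and 857 (knockout), which rose at each step in both genotypes (2.37 ± 0.13 (SE, adjusted p = 0.000461)). Slc12a7 (KCC4) gave 0.53 ± 0.14 (SE, adjusted p = 0.0272) and Slc12a9 0.70 ± 0.18 (SE, adjusted p = 0.024), smaller rises whose calls were lost without single arrays, for Slc12a7 without any but the knockout array at 5 h (adjusted p 0.0604 to 0.183) and for Slc12a9 without either 0 h array or the knockout array at 5 h (0.0542 to 0.123). The endosomal sodium-proton exchanger Slc9a8 (NHE8) rose from 92.9 to 255 in wild type and from 112 to 208 in knockout (1.18 ± 0.17 (SE, adjusted p = 0.00448)), and was a member only through 5 h.

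The sulfate importer Slc26a2 read 634, 247 and 141 (wild type) and 670.1, 403 and 138 (knockout) and fell by 2.23 on the log2 scale (adjusted p = 0.00154). Its 1 h signals lay between those at 0 h and 5 h. Slc8b1 (NCLX), which moves calcium out of mitochondria, changed by −1.76 ± 0.13 (SE, adjusted p = 0.000787) and the anion exchanger Slc26a6 by −1.35 ± 0.13 (SE, adjusted p = 0.0014). The second phosphate importer, Slc20a2, changed by −1.06 ± 0.25 (SE, adjusted p = 0.0198) without the 1 h peak of Slc20a1, and its call was lost without either knockout array at 0 h or 5 h (adjusted p 0.0569 and 0.0824). Both Slc26a6 and Slc20a2 were members only through 0 h. The anion exchanger Slc4a2 (AE2) and both adaptors did not pass.

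At 5 h, 54% of all genes tested were called lower and 19.5% higher. Among the 12 carriers of the Slc35 family that supply nucleotide sugars and related donors to the Golgi and endoplasmic reticulum, 9 fell, 3 did not pass and none rose. In the limma fit none of the 12 was higher at an unadjusted p under 0.05 either, but with median centring 1 was called higher and 5 lower, and with quantile normalization 1 and 6. Their median was −1.09 (−0.32 with median centring, −0.50 with quantile normalization). Slc35b2, which delivers the sulfate donor PAPS to the Golgi, read 734, 640.1 and 123 (wild type) and 576, 577 and 74.7 (knockout), and the 5 h arrays stood far under the other 4 (−2.76 ± 0.17 (SE, adjusted p = 0.000553)). Slc35a1, the carrier of CMP-sialic acid, read 334, 255 and 69.7 (wild type) and 400.2, 295 and 51.2 (knockout) (−2.61 ± 0.22 (SE, adjusted p = 0.001)). The GDP-fucose carrier Slc35c1 (−2.00 ± 0.27 (SE, adjusted p = 0.00345)) and Slc35b4, a carrier of UDP-xylose and UDP-N-acetylglucosamine (−1.80 ± 0.11 (SE, adjusted p = 0.000566)), followed, with Slc35a5 at −1.48 ± 0.18. Slc35e4 and Slc35e1 also fell, and Slc35b1 (−0.51) and Slc35b3 (−0.70) were called lower but turned to 0.26 and 0.061 with median centring. Single arrays decided 4 of these calls: Slc35b1 lost it without any array but knockout at 5 h (adjusted p 0.0526 to 0.159), Slc35b3 without either 0 h array or knockout at 5 h (0.0873 to 0.123), Slc35e4 without wild type at 0 h or knockout at 5 h (0.0705 and 0.0931) and Slc35e1 without knockout at 0 h (0.0527).

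The UDP-galactose carrier Slc35a2 (−0.50, adjusted p = 0.0996), the UDP-N-acetylglucosamine carrier Slc35a3 (0.21, adjusted p = 0.464) and Slc35a4 (−0.52, adjusted p = 0.0503) did not pass. Slc35a3 was highest in wild type at 5 h, with signals of 208, 144 and 271 (wild type) and 210, 215 and 217 (knockout).

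Of the 8 carriers of fatty acids, choline and other substrates, 1 rose, 6 fell and 1 did not pass (median −0.73). With median centring 2 were higher, 2 lower and 4 not called (median 0.037), and with quantile normalization 1, 4 and 3. The choline importer Slc44a1 (CTL1) was the one that rose: its signals were 1138, 1725 and 4106 (wild type) and 1086, 1493 and 3030 (knockout), with both 5 h arrays above all others (1.67 ± 0.14 (SE, adjusted p = 0.000955)). Averaged over its probe sets the change was 0.77. Its relative Slc44a2 (CTL2) did not pass (−0.13, adjusted p = 0.469). The fatty acid transport proteins Slc27a1 (FATP1), with 1051, 881 and 324 (wild type) and 904, 778 and 266 (knockout), and Slc27a4 (FATP4), with 375, 259 and 123 (wild type) and 308, 291 and 90.9 (knockout), fell by similar amounts (−1.73 ± 0.10 and −1.68 ± 0.18). Slc10a3 fell (−1.13 ± 0.11), a call lost with median centring. Slc35f6, Slc33a1, the acetyl-CoA carrier of the endoplasmic reticulum, and Slc35f5 had called changes of −0.73, −0.72 and −0.58 that turned to 0.032, 0.043 and 0.19 with median centring. A second, dimmer probe set of Slc35f6 gave a larger fall without centring, −1.13. The call of Slc33a1 was lost without any array but knockout at 5 h (adjusted p 0.0547 to 0.169) and that of Slc35f5 without either 0 h array or knockout at 5 h (0.061 to 0.112).

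Mitochondrial carriers of the Slc25 family, which link cytosolic and matrix metabolism, made up 24 members: 3 rose, 15 fell and 6 did not pass at 5 h. Their median was −0.71, and it became 0.055 with median centring, where 8 were higher and 9 lower; with quantile normalization 6 were higher and 13 lower. Slc25a22, the glutamate carrier, read 163, 242 and 2352 (wild type) and 351, 298 and 2224 (knockout). It was flat at 1 h (0.17, adjusted p = 0.73) and 9.55-fold higher at 5 h (3.26 ± 0.31 (SE, adjusted p = 0.00145)), the largest fitted rise of the 107 genes. The rise from 0 h was larger in wild type, at 3.85, than in knockout, at 2.66, with the difference lying in the 0 h arrays. The calcium-regulated ATP-Mg and phosphate carrier Slc25a25 read 129.7, 287 and 396 (wild type) and 129, 201 and 389 (knockout) (1.60 ± 0.17 (SE, adjusted p = 0.00193)), while its paralog Slc25a24 was called lower (−0.74) but changed by 0.028 with median centring and lost its call without either 0 h array or without the knockout array at 5 h (adjusted p 0.0518 to 0.0986).

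Slc25a37, which brings iron into mitochondria, was highest at 1 h with 584, 1122 and 866 (wild type) and 463, 837 and 616 (knockout). Its change at 5 h was 0.49 ± 0.11 (SE, adjusted p = 0.0149), lost without either 0 h array or without the wild-type array at 5 h (adjusted p 0.0509 to 0.132). The second mitoferrin, Slc25a28, did not pass at either time (0.15 at 1 h and 0.13 at 5 h).

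The falls in this family included Slc25a30, with 1222, 996 and 178 (wild type) and 1178, 982 and 169 (knockout) (−2.79 ± 0.10 (SE, adjusted p = 0.00032)). Both 5 h arrays lay far under the other 4. The ornithine carrier Slc25a15, of the urea cycle, read 188, 154 and 41.7 (wild type) and 208, 149 and 26 (knockout) (−2.59 ± 0.23 (SE, adjusted p = 0.00126)), and was a member only through 0 h. The pyrimidine nucleotide carrier Slc25a36 fell stepwise, with 1670, 935 and 293 (wild type) and 1556, 962 and 254 (knockout) (−2.56 ± 0.12 (SE, adjusted p = 0.000373)), the opposite of the early rise of Slc25a33.

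The aspartate and glutamate carrier Slc25a13 (−2.24 ± 0.24), the S-adenosylmethionine carrier Slc25a26 (−2.17 ± 0.28), Slc25a45 (−2.04 ± 0.13) and the oxoglutarate carrier Slc25a11 (−1.65 ± 0.13) fell as well. Slc25a39, which carries glutathione, read 7314, 5527 and 1993 (wild type) and 7024, 5238 and 1814 (knockout), a fall of 1.91 on the log2 scale (adjusted p = 0.000434). The NAD carrier Slc25a51 fell by 1.46 on the log2 scale, but a second probe set gave −0.095. The ADP and ATP exchangers Slc25a4 and Slc25a5 read 3315, 2983 and 1560 (wild type) and 3133, 2693 and 1571 (knockout) and 6996, 5488 and 4901 (wild type) and 6173, 5440 and 4181 (knockout), respectively, and the change of Slc25a5 (−0.54), close to the median of all genes, turned to 0.23 with median centring and its call was lost without either 0 h array or knockout at 5 h (adjusted p 0.0546 to 0.103). The phosphate carrier Slc25a3 read 9306, 8959 and 7568 (wild type) and 8611, 8819 and 7427 (knockout) and did not pass (−0.26, adjusted p = 0.0822), nor did the dicarboxylate carrier Slc25a10 (−0.073), the branched-chain amino acid carrier Slc25a44 (0.13) or the peroxisomal Slc25a17 (−0.17).

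**Figure D3:**
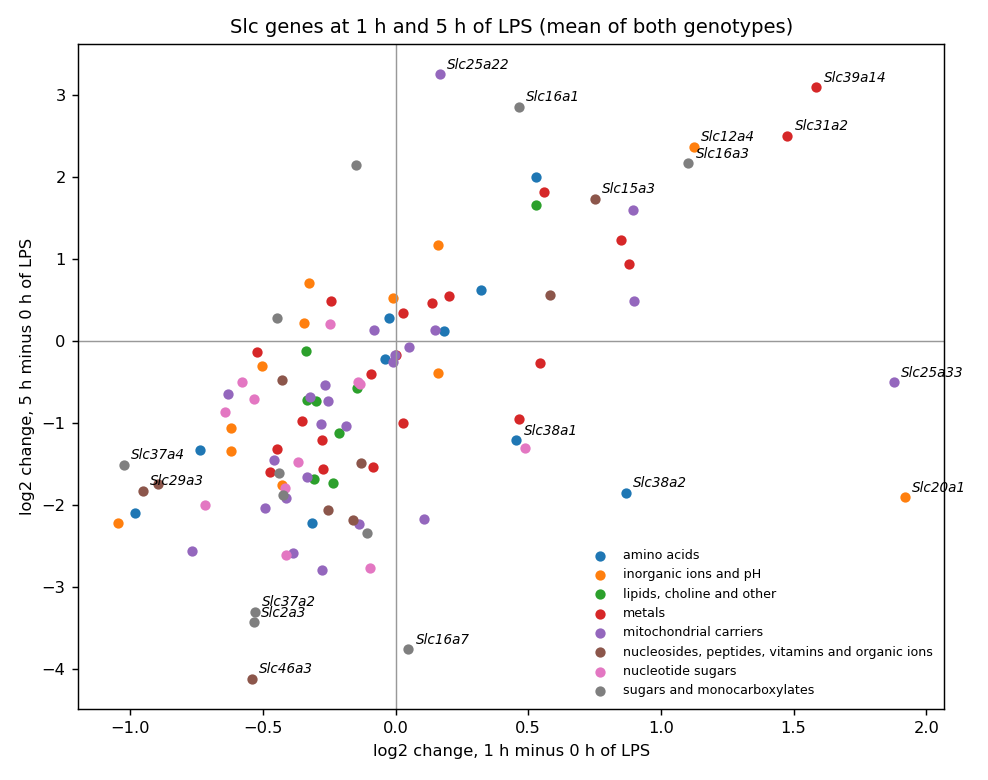
Log2 change at 1 h (horizontal) against that at 5 h (vertical) of LPS for the 107 Slc genes, each a mean of both genotypes, coloured by substrate group; both axes share the 0 h arrays. Slc39a14, Slc31a2, Slc12a4 and Slc16a3 lie at the upper right, Slc20a1 (1.92 and −1.91) at the lower right and Slc46a3 at the bottom.

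From 1 h to 5 h, 19 members rose and 54 fell, and 34 did not pass the test; the median was −0.48 against −0.38 over all genes. With median centring 36 were higher and 36 lower and the median turned to 0.10, and with quantile normalization 25 were higher and 44 lower (median −0.20). The share higher was 17.8%, beside 18.5% of all genes called higher, and the share lower 50.5%, beside 45.5%. This comparison shares its arrays with the other 2 and adds the timing. Slc25a22 (3.09), Slc16a1 (2.40) and Slc13a3 (2.29) gained most of their rise in this interval, and Slc13a3 was a member only through the knockout array at 5 h. Slc30a6 (0.06), Slc30a4 (0.38) and Slc23a2 (−0.023) did not pass from 1 h to 5 h. Their changes at 1 h (0.88, 0.85 and 0.58) did not pass either, so the timing of their rise is not settled. Slc37a3 and Slc4a2, which did not pass against 0 h, rose from 1 h (0.73 and 0.56), although Slc37a3 gave −0.015 with the mean of its probe sets. Without the knockout array at 1 h, 11 members were called higher.

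Carriers and accessory proteins outside the Slc families gave a background of related genes. Of 24 tested, 1 was higher (Abcc5, 0.55) and 17 lower at 5 h (median −0.66). With median centring 6 were higher and 8 lower (median 0.10), and with quantile normalization 2 and 14 (median −0.51). The phosphate exporter Xpr1 (−3.40) and the lysosomal cystine exporter Ctns (−2.82) fell most, and Bsg, the chaperone of MCT1 and MCT4, changed by −0.52 (adjusted p = 0.0235).

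Between the genotypes, no member was called in the limma fit over the 3 times, and 1 of all 7507 genes was (0.0133% called lower and 0% higher). At an unadjusted p under 0.05 there were 7 members, beside 8.38% of all genes, and the smallest adjusted p of a member was 0.538. Slc25a37 was lower in knockout at each time, by −0.33, −0.42 and −0.49, a mean of −0.42 ± 0.09 (SE). Slc35b2 differed by −0.35, −0.15 and −0.72, and Slc39a4 by −0.27, −0.24 and −0.62. Slc16a1 was higher in knockout, by 0.23, 0.28 and 0.68. These are the sizes on single pairs of arrays, and none passed the correction.

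Differences of at least 2-fold on a single pair were found for 2 members at 0 h, 1 at 1 h and 4 at 5 h, which is 1.87%, 0.935% and 3.74% of the members, beside 2.04%, 2.97% and 4.86% of all genes. At 0 h they were Slc30a3 (2.52) and Slc25a22 (1.11), at 1 h Slc30a3 (2.67), and at 5 h Slc30a3 (−2.21), Slc19a1 (−1.30), Slc13a3 (1.35) and Slc16a7 (1.61, a lower bound, as wild type was under the floor). Slc30a3 read 25.2, 34.9 and 108 (wild type) and 145, 222 and 23.4 (knockout). It was thus higher in knockout before LPS and at 1 h, and higher in wild type at 5 h. Slc30a3 was a member only through the knockout array at 1 h, and Slc13a3 only through the knockout array at 5 h. Their higher knockout signals on those arrays are therefore part of how they were chosen. The spread of knockout minus wild type over the members (SD) was 0.334, 0.365 and 0.475 at the 3 times, and 0.353, 0.397 and 0.476 over all genes.

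**Figure D4:**
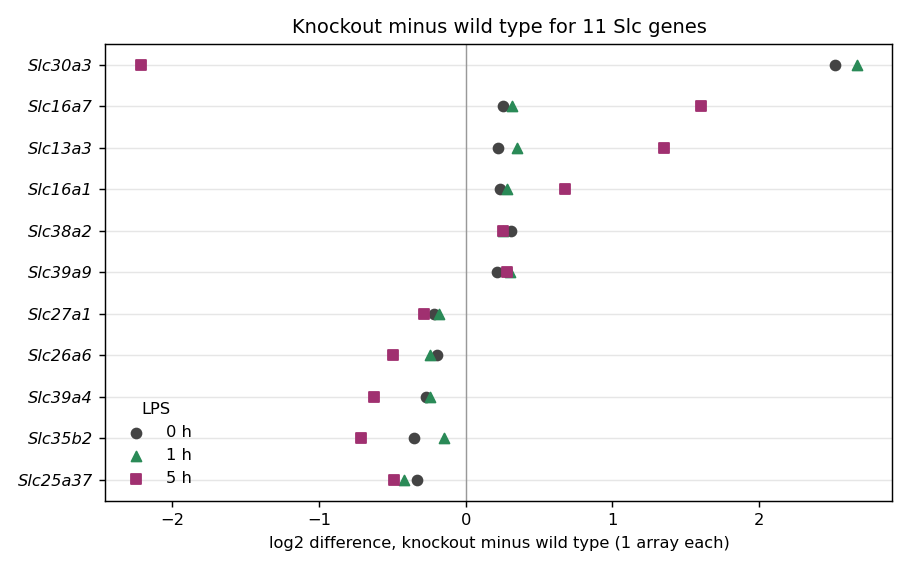
Knockout minus wild type on the log2 scale at 0 h (circles), 1 h (triangles) and 5 h (squares) of LPS for 10 Slc genes with the same sign at all 3 times and for Slc30a3, 1 pair of arrays per point. The circles and triangles of the first 10 lie near 0; the 5 h point of Slc16a7 (1.61) is a lower bound, and Slc30a3 changes from 2.52 at 0 h to −2.21 at 5 h.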

How the data were processed

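The values are intensities: MAS5 signals on a linear scale that the authors deposited for 22690 probe sets, per the submitters' processing notes, which name MAS5; its version and its scaling target are not given in the sources used. The 64 control probe sets were left out. A floor of 18.3, the 25th percentile of the values, was applied before taking log2. Probe sets with 1 symbol that exceeded their array's median on at least 1 array were kept, and the brightest on average stood for each gene (7507 genes).

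Changes were fitted with limma 3.58.1 in R 4.3.3 on all 6 arrays with time and genotype as additive terms (2 residual degrees of freedom, prior 2.18), and p-values were adjusted over all genes. The script was tested on simulated data. With 1 array per condition, their number limits the precision. Effects within a genotype are values without a test.

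The members, substrate groups and lists were chosen with earlier results of these data known. Named genes are, per group, up to 4 rises and 4 falls of at least 2-fold in both genotypes at 5 h, the extremes at 1 h, the brightest, those that differ most steadily or oppositely between genotypes, a fixed set, and the extremes of each list; Slc symbols that make up small counts were named outside this rule after their values were seen. Alternatives were the floor, the scaling, the filter, the probe set rule, the genotype term, the signal limit of the members and each array left out. All 107 members were found in the RefSeq gene table (GRCm38.p6), which gave gene order.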

Additional observations from a re-analysis of the deposited data

Results flagged for a closer look

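Slc30a3 (ZnT3, which fills vesicles with zinc) changed in opposite directions in the genotypes between 0 h and 5 h of LPS: by 2.10 on the log2 scale in wild type and by −2.63 in knockout. Its signals at 0, 1 and 5 h were 25.2, 34.9 and 108 (wild type) and 145, 222 and 23.4 (knockout), and 1 of these 6 exceeded 200. The wild-type signal at 0 h and the knockout signal at 5 h lay near the floor of 18.3. The SE of its fitted change at 5 h was 1.36, against a median of 0.143 over the members. Each genotype and time had 1 array, so the difference between the genotypes was not tested. No other member changed at least 2-fold in opposite directions.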

How the results depend on the processing

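Genotype was a term of the fit, so arrays were paired by genotype for the LPS changes, with 1 array per genotype and time. Pairing by animal was not possible, because the labels name no animals and number no replicates. The counts at 1 h were the least stable. Members called higher there went from 9 to 14 with median centring and to 3 with no filter on dim probe sets, and from 0 to 10 when each array was left out in turn. Members called lower went from 4 to 9 with log2(signal + 16), 17 among genes reaching a signal of 200, 8 without the genotype term, 1 with median centring and 0 with no filter, and from 0 to 2 with an array left out. At 5 h against 0 h, 39 members were called higher with median centring, where 58.9% of calls went up over all genes rather than 26.5%. Leaving out an array gave 14 to 22 higher and 49 to 61 lower. At 5 h against 1 h, 36 were higher and 36 lower with median centring, and 11 to 18 higher and 42 to 50 lower without an array. The genotype counts were 0 under each alternative run for that comparison, which leaves out the fit without a genotype term.

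Called members that changed sign at 5 h against 0 h were, with median centring, Slc15a4 (0.29), Slc25a24 (0.028), Slc25a38 (0.082), Slc25a46 (0.12), Slc25a5 (0.23), Slc33a1 (0.043), Slc35b1 (0.26), Slc35b3 (0.061), Slc35f5 (0.19) and Slc35f6 (0.032), and with quantile normalization Slc25a38 (0.044). At 5 h against 1 h they were, with median centring, Slc25a37 (0.18), Slc35f5 (0.15), Slc35f6 (0.15), Slc37a4 (0.10) and Slc9a3r1 (0.031), with quantile normalization Slc37a4 (0.10), and with the mean of probe sets Slc37a3 (−0.015). Median centring raises every 5 h value by construction, and none of the values listed here passed the test. Of the called members, 62 of 82 at 5 h against 0 h and 54 of 73 at 5 h against 1 h kept call and sign under both rescalings.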
